A study of Rattus norvegicus with 27 samples.

Results

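The antioxidant and glutathione system was examined in tail motor neurons of adult male Wistar rats, 21 and 60 days after spinal cord transection or sham surgery. The genes were chosen by name: every gene whose symbol starts with Gpx, Prdx, Txn, Glrx, Mgst, Msr or Gst plus a letter, together with Sod1, Sod2, Sod3, Cat, Hmox2, Gclc, Gclm, Gss, Gsr, Nfe2l2, Keap1, Mt2A and Mt3. That gave 61 genes of the 9769 genes named on the array by a probe set with 1 gene symbol. The 61 genes had 65 such probe sets, and each gene was read from the one with the highest mean over all arrays. Hmox1, Nqo1, Gpx1, Srxn1, Txn2, Txnrd1, Prdx1 and Mt1 were not analysed here.

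The study placed 27 samples in 4 groups. Spi-21 (8 samples) and Spi-60 (8 samples) came from rats whose cord was cut at S2, with a short piece of tissue removed, after laminectomy of vertebrae L2-L3, and were taken 21 and 60 days later. ShamC-21 (6 samples) and ShamC-60 (5 samples) came from rats with a laminectomy and an intact dura, taken on the same days. All groups carried Fluorogold, a retrograde tracer injected into muscle and intraperitoneally 5 to 7 days before tissue collection, all had buprenorphine after surgery, and each sample held 100 to 200 laser-dissected neurons by the sample labels or about 50 to 200 by the series design. The labels number biological replicates but name no animals, so each p-value reflects only how much these samples varied, which may be technical.

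Cells dispose of superoxide through the superoxide dismutases and of the resulting peroxides through catalase, the glutathione peroxidases and the peroxiredoxins. The peroxidases draw their electrons from glutathione or thioredoxin, which glutathione reductase and the thioredoxin reductases keep reduced at the cost of NADPH. Glutathione transferases join glutathione to electrophiles such as lipid aldehydes, metallothioneins bind zinc and copper, and the transcription factor NRF2 (gene Nfe2l2), held down by KEAP1, drives many of these genes through the antioxidant response element in their promoters. Among motor neurons the system is best known through SOD1, changes in which cause inherited amyotrophic lateral sclerosis.

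The promoters of 4 genes that recur in the results are shown, each as the 250 bases before the transcription start on the gene's own strand, from RefSeq on GRCr8. The metallothionein pair is shown because both genes rose at both days, with capitals marking the core of the metal response element, TGCACNC or TGCGCNC on either strand, the site of the metal-sensing factor MTF1. Mt2A lies at chr19:10838709-10838958 (minus strand) and Mt3 at chr19:10856081-10856330 (minus strand).
Mt2A: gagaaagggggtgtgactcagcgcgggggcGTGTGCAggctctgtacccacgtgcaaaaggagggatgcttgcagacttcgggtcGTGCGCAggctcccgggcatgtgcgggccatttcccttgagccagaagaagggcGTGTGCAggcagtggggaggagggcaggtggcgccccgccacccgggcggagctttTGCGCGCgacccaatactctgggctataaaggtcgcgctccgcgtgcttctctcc
Mt3: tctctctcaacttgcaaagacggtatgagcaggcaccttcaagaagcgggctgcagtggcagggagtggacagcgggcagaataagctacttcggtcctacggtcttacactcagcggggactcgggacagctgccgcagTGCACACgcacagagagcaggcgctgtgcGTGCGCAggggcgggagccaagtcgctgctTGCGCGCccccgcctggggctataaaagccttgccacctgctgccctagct
Gclm, which fell at both days, and Gstp1, which was higher on every transected array at both days, are shown with capitals on the antioxidant response element core, TGACNNNGC on either strand. Gclm lies at chr2:213031885-213032134 (plus strand) and Gstp1 at chr1:210769706-210769955 (minus strand).
Gclm: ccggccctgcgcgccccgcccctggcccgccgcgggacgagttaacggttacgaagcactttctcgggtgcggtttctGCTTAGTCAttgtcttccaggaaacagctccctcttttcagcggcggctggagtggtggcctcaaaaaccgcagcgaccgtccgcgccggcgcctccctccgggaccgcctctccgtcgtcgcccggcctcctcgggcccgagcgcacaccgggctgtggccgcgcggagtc
Gstp1: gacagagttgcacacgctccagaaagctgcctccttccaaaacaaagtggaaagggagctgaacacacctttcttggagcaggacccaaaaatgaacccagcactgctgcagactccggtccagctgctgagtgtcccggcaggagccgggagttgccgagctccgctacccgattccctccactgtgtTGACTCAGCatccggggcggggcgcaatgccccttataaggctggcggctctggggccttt
The 4 metal response cores of Mt2A begin 220, 165, 111 and 55 bases before its start, and the 3 of Mt3 begin 110, 81 and 51 bases before. Mt2A also holds an antioxidant core, TGACTCAGC, 237 bases before its start, left in lower case above. Metal response cores, also in lower case, begin 243 and 32 bases before the start of Gclm and 242 and 42 before that of Gstp1. The Gclm core reads GCTTAGTCA on the gene's strand and begins 172 bases before the start, and the Gstp1 core reads TGACTCAGC and begins 61 bases before.

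RefSeq promoters of 300 bases (250 before the start to 50 after it) were matched to 52 of the 61 genes. The antioxidant core occurred in 16 of the 52 (30.8%), in 14.8% of the 8070 promoters matched to genes of the array and in 12.1% of all 33469 promoters. Of the 16 genes that held it, 3 rose, 5 fell and 8 did not pass the threshold in the mean of both days. Of the 36 matched genes without it, 9 rose and 8 fell, and 40.1% of all genes passed in that comparison. Either form of the metal response core occurred in 17 of the 52 (32.7%), in 34.8% of the array's matched promoters and in 24.2% of all promoters. Of these 17 genes, 6 rose, 6 fell and 5 did not pass in the mean of both days. Among the 35 matched genes without a metal core, 6 rose and 7 fell, beside the same 40.1% of all genes passing. A match is only a run of letters and does not show that a factor binds there. Bases outside these 300 were not searched, so a gene counted as without a core may hold one elsewhere.

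Expression was read on a log2 scale, so a difference of 1 is a doubling. The median signal of the 27 arrays lay between 6.31 and 6.41, arrays correlated with each other at 0.825 to 0.989, and no 2 arrays held identical values. Means of 15 motor neuron markers lay between 9.96 and 10.5 on all arrays but one, ShamC-60 replicate 4, where the mean was 8.81. ShamC-60 replicate 1 had the highest oligodendrocyte (8.63), astrocyte (9.74) and fibroblast and Schwann cell (8.80) means of its group. In Spi-21 the GAPDH control, read as the 3′ minus the 5′ probe set, was 2.57 to 3.47 in replicates 1 to 4, whereas replicates 5 to 8 held 0.985 to 1.46. The same difference for beta-actin ran from 1.92 to 2.65 over the sham arrays and from 2.75 to 3.77 over the transected arrays, without overlap, so this sign of RNA quality moved with the operation in the comparisons of transected with sham samples, and its part in the results was not tested. In dissected samples, fewer cells of a type and less RNA per cell cannot be told apart.

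With all arrays and the deposited values, the system did not shift as a block after transection: some genes rose, a like number fell, and the median gene stayed near 0. At 21 days 13 of the 61 genes passed the threshold (limma, Benjamini-Hochberg adjusted p under 0.05 over 12913 probe sets), 7 higher and 6 lower in transected samples. That is 21.3% of the 61, beside 22.6% of all 9769 genes (11.1% higher, 11.5% lower). The balance of directions at 21 days moved with the processing. Quantile normalization of the arrays called 9 higher and 3 lower, and leaving out Spi-21 replicates 5 to 8 called 9 higher and 15 lower. The share of all genes was not counted in those fits. At 60 days 14 genes passed, 8 higher and 6 lower (23%), beside 20.1% of all genes (10.7% higher, 9.44% lower). In the mean of both days, which pools the arrays of both comparisons, 28 passed, 15 higher and 13 lower (45.9%), beside 40.1% of all genes (20.6% higher, 19.5% lower). The share of these genes that passed was therefore close to that of the array as a whole. The median difference over the 61 genes was -0.060 at 21 days, -0.043 at 60 days and -0.0024 in the mean, beside 0.0093, 0.022 and 0.015 over all genes.

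Of the 61 genes, 6 passed at both days, each in the same direction: Gpx4, Mt2A and Mt3 rose, and Gclm, Nfe2l2 and Txnl1 fell. A further 7 genes passed at 21 days alone, 8 at 60 days alone, and 32 genes in none of the transected against sham comparisons. Passing at one day alone does not show that the days differ, and the test of that difference, given further on, called none of the 61 genes. Every transected array lay above every sham array for 3 genes at 21 days (Gpx4, Gstp1 and Mt3), beside 3.17% of all genes, and for 4 genes at 60 days (Gpx4, Gstm4, Gstp1 and Prdx5), beside 5.11%. Every transected array lay below every sham array for 1 gene at 21 days (Gclm; 2.3% of all genes) and 1 gene at 60 days (Glrx2; 3.6%).

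**Figure D1:**
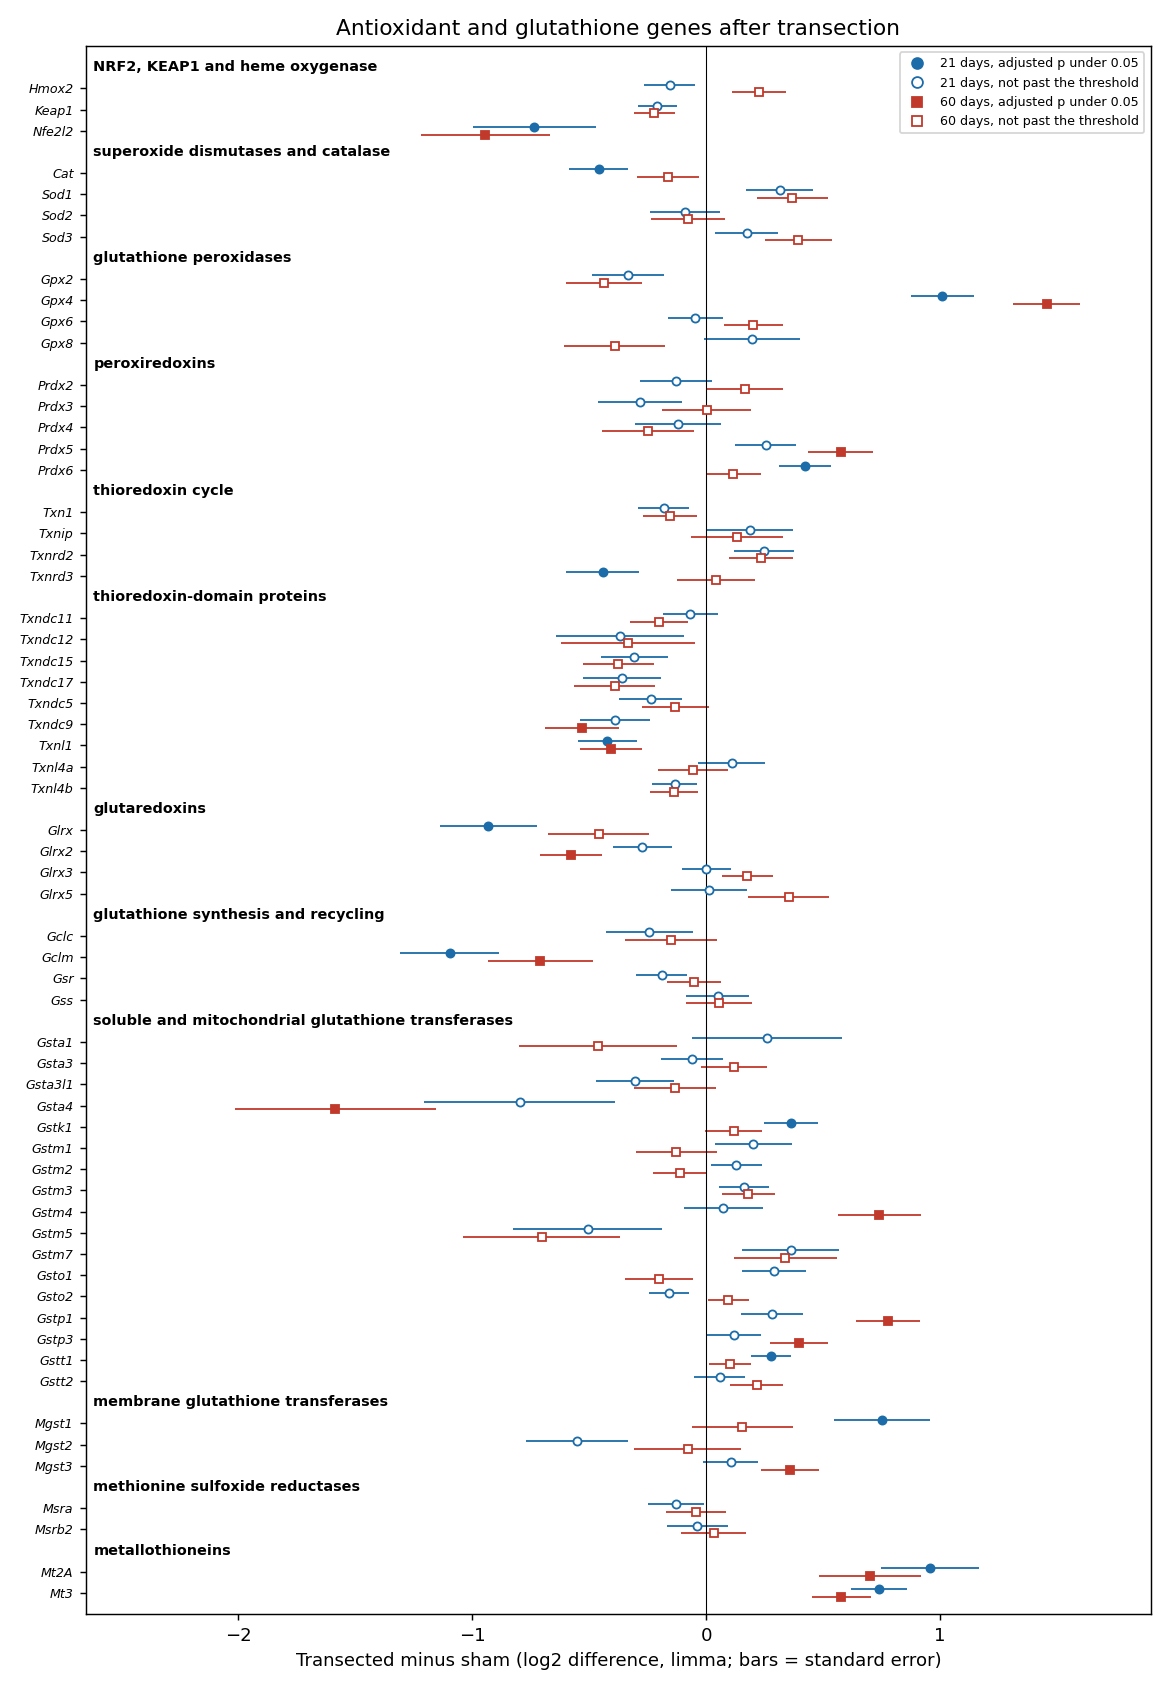
Log2 difference of transected minus sham samples for all 61 genes, grouped by role; circles are 21 days, squares are 60 days, bars are the standard error of the limma fit, and filled symbols passed an adjusted p of 0.05. Filled symbols lie on both sides of 0, with Gpx4 farthest to the right at both days and Gsta4 at 60 days farthest to the left.

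Among the regulators, Nfe2l2, the gene of NRF2, fell at both days. Its signal in ShamC-21 ran from 6.07 to 7.81 with a median of 7.08, and in Spi-21 from 5.53 to 6.85 with a median of 6.43. At 60 days the 5 sham values were 8.68, 7.09, 7.41, 7.81 and 7.05, while Spi-60 ran from 6.15 to 7.51 with a median of 6.60. The groups overlapped at both days, although all 8 transected arrays lay below the sham mean at each day and ShamC-60 replicate 1 was far above its group. Replicates 1 (8.68) and 4 (7.81), the highest sham values at 60 days, are the arrays whose cell type markers stood apart. The part of cell content in these values was not tested. The difference was -0.73 ± 0.26 (SE) at 21 days (adjusted p = 0.0434) and -0.94 ± 0.28 at 60 days (adjusted p = 0.0178), or 1.66-fold and 1.92-fold lower. Both calls rested on few arrays. The 60-day call was lost without ShamC-60 replicate 1 (-0.67, adjusted p = 0.0924), and the 21-day call was lost on leaving out any 1 of Spi-21 replicates 1, 2, 3 and 8 or ShamC-21 replicates 1, 2, 4, 5 and 6 (adjusted p up to 0.131). In the mean of both days no single array ended the call (-0.84, adjusted p = 0.00114).

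Keap1, the inhibitor that marks NRF2 for destruction, was lower by its brighter probe set in the mean of both days alone (-0.21 ± 0.06, adjusted p = 0.00746). All 8 transected arrays lay below the sham mean at each day, with group means of 8.53 in ShamC-21, 8.33 in Spi-21, 8.58 in ShamC-60 and 8.36 in Spi-60. A second probe set of Keap1 differed in the opposite direction without passing (0.20, adjusted p = 0.0503 in the mean). It was much dimmer, with a mean signal of 5.19 over all arrays beside 8.43. The probe sets thus disagreed on direction, and their weight as evidence is not equal. Hmox2, the constitutive heme oxygenase, did not pass at either day (-0.16, adjusted p = 0.311, and 0.23, adjusted p = 0.166).

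None of the 3 superoxide dismutases passed at either day taken alone. Sod1, the cytosolic copper-zinc superoxide dismutase, had group means of 11.67 ± 0.11 (SD, n = 6) in ShamC-21, 11.98 ± 0.25 (n = 8) in Spi-21, 11.45 ± 0.26 (n = 5) in ShamC-60 and 11.82 ± 0.36 (n = 8) in Spi-60. It passed in the mean of both days alone (0.34 ± 0.10, adjusted p = 0.0107), and 6 of 8 transected arrays lay above the sham mean at each day. That call was lost without Spi-21 replicates 1 to 4 (0.31, adjusted p = 0.0542). Sod3, the extracellular enzyme, was likewise higher in the mean alone (0.28 ± 0.10, adjusted p = 0.0236), a call lost without ShamC-60 replicate 3 (adjusted p = 0.0504). Its mean signal over all arrays was 6.18, below the median of every array. With the replicate block, Sod3 also passed at 21 days (0.28, adjusted p = 0.0484) and at 60 days (0.53, adjusted p = 0.00166). Sod2, the mitochondrial manganese enzyme, did not pass (-0.09, adjusted p = 0.699, at 21 days, and -0.08, adjusted p = 0.762, at 60 days).

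Cat, the catalase of peroxisomes, fell at 21 days. ShamC-21 ran from 9.46 to 9.80 with a median of 9.73, and Spi-21 from 8.71 to 9.64 with a median of 9.34. The groups overlapped, with 6 of 8 transected arrays below every sham array and all 8 below the sham mean. The difference was -0.46 ± 0.13 (adjusted p = 0.0107) and no single array ended the call, but quantile normalization of the arrays did (-0.36, adjusted p = 0.0623). So did leaving out Spi-21 replicates 5 to 8 (-0.27, adjusted p = 0.101), whose mean was 9.03 beside 9.42 for replicates 1 to 4. At 60 days the sham values were 9.59, 9.53, 9.57, 9.40 and 9.43 and Spi-60 ran from 8.93 to 9.74, a difference of -0.16 that did not pass (adjusted p = 0.399).

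Gpx4 had the highest difference of the 61 genes at both days. It encodes the selenium-dependent glutathione peroxidase that reduces lipid hydroperoxides inside membranes and guards cells against ferroptosis. ShamC-21 ran from 6.81 to 7.35 with a median of 7.21, and Spi-21 from 7.73 to 8.47 with a median of 8.17. On the 5 arrays of ShamC-60 it was 6.95, 6.91, 7.06, 6.65 and 6.77, and Spi-60 ran from 7.72 to 8.65 with a median of 8.42. Every transected array was above every sham array at its own day. The difference was 1.01 ± 0.14 at 21 days (adjusted p = 1.45e-05) and 1.46 ± 0.14 at 60 days (adjusted p = 1.43e-07), or 2.01-fold and 2.74-fold. The call held at both days without any single array, without either set of Spi-21 arrays, without ShamC-60 replicates 1 and 4 (1.41, adjusted p = 1.46e-05) and with the mean of the glial markers as a covariate (1.07 and 1.50).

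None of the other 3 glutathione peroxidases passed at either day. Gpx2, an enzyme best known from the gut lining, was lower in the mean of both days alone (-0.38 ± 0.11, adjusted p = 0.00796), with differences of -0.33 at 21 days (adjusted p = 0.114) and -0.43 at 60 days (adjusted p = 0.0589). Its mean signal over all arrays was 5.91, below the median of every array. Gpx6 passed in no comparison. Gpx8, an enzyme of the endoplasmic reticulum, had differences of 0.20 and -0.39 that did not pass, although with the glial marker covariate it passed at 60 days (-0.55, adjusted p = 0.0235), and its ShamC-60 values of 8.24, 7.20, 6.74, 8.22 and 7.07 were high in replicates 1 and 4.

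Of the 5 peroxiredoxins, which reduce peroxides with a reactive cysteine, 1 rose at each day and none fell, beside 22.6% of all genes passing at 21 days and 20.1% at 60 days. Prdx6, the 1-cysteine member that also acts on phospholipid peroxides, ran from 7.18 to 7.48 in ShamC-21 with a median of 7.31 and from 7.47 to 8.04 in Spi-21 with a median of 7.75. Only the edges of the 2 groups met, and 7 of 8 transected arrays were above every sham array. It rose by 0.42 ± 0.11 (adjusted p = 0.00793). Spi-21 replicates 1 to 4 carried most of that difference: they held 7.87 to 8.04, and replicates 5 to 8 held 7.47 to 7.62, so that without replicates 1 to 4 the difference was 0.21 (adjusted p = 0.242). For Prdx6 the 60-day difference was 0.12 (adjusted p = 0.509).

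Prdx5, which works in mitochondria and peroxisomes, rose at 60 days. The 5 sham values were 9.49, 9.71, 9.67, 8.90 and 9.74, and Spi-60 ran from 9.84 to 10.51 with a median of 10.04. No transected array overlapped the sham arrays, of which replicate 4, the array with the low motor neuron markers, was the lowest. The difference was 0.57 ± 0.14 (adjusted p = 0.00489), and 0.37 (adjusted p = 0.124) without ShamC-60 replicates 1 and 4. At 21 days Prdx5 differed by 0.25 (adjusted p = 0.16). Prdx2, Prdx3 and Prdx4 passed in no comparison, with differences between -0.28 and 0.17 at the 2 days.

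In the thioredoxin cycle no gene passed at both days. Txn1, the cytosolic thioredoxin itself, had differences of -0.18 at 21 days (adjusted p = 0.238) and -0.15 at 60 days (adjusted p = 0.368). Txnrd3, a reductase that joins a glutaredoxin domain to a thioredoxin reductase, fell by 0.44 on the log2 scale at 21 days (adjusted p = 0.0424). Its values ran from 8.33 to 8.71 in ShamC-21 and from 7.52 to 8.53 in Spi-21. The groups overlapped although 7 of 8 transected arrays were below every sham array. The call was lost on leaving out any 1 of 9 arrays (Spi-21 replicates 1, 2, 3 and 6 or ShamC-21 replicates 1, 2, 3, 4 and 6; adjusted p up to 0.0916), and with the replicate block (-0.46, adjusted p = 0.0619). Its 60-day difference was 0.04. Txnrd2, the mitochondrial reductase, was higher in the mean alone (0.24 ± 0.09, adjusted p = 0.0427), a call that 15 of the 27 arrays could each end when left out (adjusted p up to 0.0945). Its mean signal over all arrays was 6.19, below the median of every array. Txnip, the inhibitor of thioredoxin, passed in no comparison (0.19 and 0.13). Its value on ShamC-60 replicate 1 was 8.77 beside 7.17 to 7.39 on the other 4 sham arrays of that day, and without replicates 1 and 4 it was higher in the mean of both days (0.32, adjusted p = 0.0245).

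Of the 9 thioredoxin-domain proteins, 4 fell and none rose in the mean of both days, beside 19.5% of all genes lower and 20.6% higher. Their median difference was -0.34. Txnl1, a thioredoxin-like protein that associates with the proteasome, fell at both days. ShamC-21 ran from 12.21 to 12.41 with a median of 12.30 and Spi-21 from 11.55 to 12.22 with a median of 11.90. Arrays of ShamC-60 held 12.12, 12.12, 12.31, 11.99 and 12.29, and Spi-60 ran from 11.35 to 12.25 with a median of 11.66. The ranges overlapped at both days through a minority of transected arrays, since 7 of 8 at 21 days and 6 of 8 at 60 days were below every sham array. The differences were -0.42 ± 0.13 (adjusted p = 0.0174) and -0.41 ± 0.13 (adjusted p = 0.031). The 60-day call was lost on leaving out any 1 of Spi-60 replicates 1, 2, 4 and 5 or ShamC-60 replicates 1, 3 and 5 (adjusted p up to 0.0733), and both calls were lost with quantile normalization (adjusted p = 0.0827 and 0.112). The 21-day call was also lost without Spi-21 replicates 1 to 4 (-0.23, adjusted p = 0.282). The probe set of Txnl1 can bind transcripts of related genes, and a second one gave -0.44 and -0.14 without passing.

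Txndc9, which binds the chaperonin CCT, fell at 60 days, from sham values of 7.18, 7.17, 7.61, 7.62 and 6.97 to a Spi-60 range of 6.57 to 7.14. Of the 8 transected arrays, 7 lay below every sham array. The difference was -0.53 ± 0.16 (adjusted p = 0.0191), a call lost without ShamC-60 replicate 3 or without replicate 4 (adjusted p up to 0.0734), and -0.39 at 21 days (adjusted p = 0.059). At 21 days Txndc9 passed with the replicate block (-0.44, adjusted p = 0.0387). Txndc15 (-0.34 ± 0.10, adjusted p = 0.0108) and Txndc17 (-0.38 ± 0.12, adjusted p = 0.0146) were lower in the mean alone, and the remaining members of the group passed in no comparison.

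Both cytosolic and mitochondrial glutaredoxins, which use glutathione to undo mixed disulfides on proteins, had a member that fell. Glrx, the cytosolic form, ran from 10.54 to 11.67 in ShamC-21 with a median of 10.99 and from 9.31 to 11.15 in Spi-21 with a median of 10.16. One transected array lay within the sham range and the other 7 below it. The difference was -0.93 ± 0.21 at 21 days (adjusted p = 0.00254), and it passed both without Spi-21 replicates 1 to 4 and without replicates 5 to 8. At 60 days the difference for Glrx was -0.46 (adjusted p = 0.136), with sham values of 10.62, 10.88, 10.94, 10.35 and 10.89 against a Spi-60 range of 10.09 to 10.63. A second, much dimmer probe set of Glrx (mean signal 5.94 beside 10.49) gave -0.17 and -0.10 and did not pass.

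Glrx2, the mitochondrial form that carries an iron-sulfur cluster, fell at 60 days. Its sham values were 11.19, 11.23, 11.25, 11.25 and 10.98, and Spi-60 ran from 10.27 to 10.83 with a median of 10.59. All 8 transected arrays were below all 5 sham arrays. The difference was -0.58 ± 0.13 (adjusted p = 0.00339), and -0.55 (adjusted p = 0.0393) without ShamC-60 replicates 1 and 4. At 21 days it was -0.27 (adjusted p = 0.115), and Spi-21 was split, with 10.32 to 10.69 in replicates 1 to 4 against 10.75 to 11.27 in the rest. Without Spi-21 replicate 5 the 21-day difference of Glrx2 passed (adjusted p = 0.0433). Glrx3 and Glrx5, which serve iron handling, passed in no comparison.

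In glutathione synthesis the modifier subunit fell while the catalytic subunit did not pass. Gclm, whose product makes the rate-limiting glutamate-cysteine ligase more active, ran from 9.29 to 9.90 in ShamC-21 with a median of 9.53 and from 7.86 to 8.99 in Spi-21 with a median of 8.61. The 2 groups did not overlap at 21 days. ShamC-60 gave 9.49, 9.33, 9.61, 7.86 and 9.25, and Spi-60 ran from 7.90 to 8.73 with a median of 8.37. There 4 of the 5 sham arrays lay above every transected array and the fifth, replicate 4, lay below them all. The differences were -1.10 ± 0.21 (adjusted p = 0.000819) and -0.71 ± 0.22 (adjusted p = 0.026), or 2.14-fold and 1.63-fold lower. Without ShamC-60 replicates 1 and 4 the 60-day difference of Gclm was -0.996 (adjusted p = 0.00384). Leaving out any 1 of Spi-60 replicate 5 or ShamC-60 replicates 1, 2 and 3, while replicate 4 stayed in, ended the 60-day call (adjusted p up to 0.0879). So did quantile normalization (-0.60, adjusted p = 0.0563) and a fit of the 60-day groups alone (adjusted p = 0.0564).

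Gclc, the catalytic subunit of the same ligase, had differences of -0.24 ± 0.19 at 21 days (adjusted p = 0.36) and -0.15 ± 0.20 at 60 days (adjusted p = 0.624). Whether Gclm and Gclc differ in their response was not tested. Gss, which completes glutathione, gave 0.05 and 0.06, and Gsr, which regenerates it from its disulfide, gave -0.19 and -0.05, none past the threshold.

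**Figure D2:**
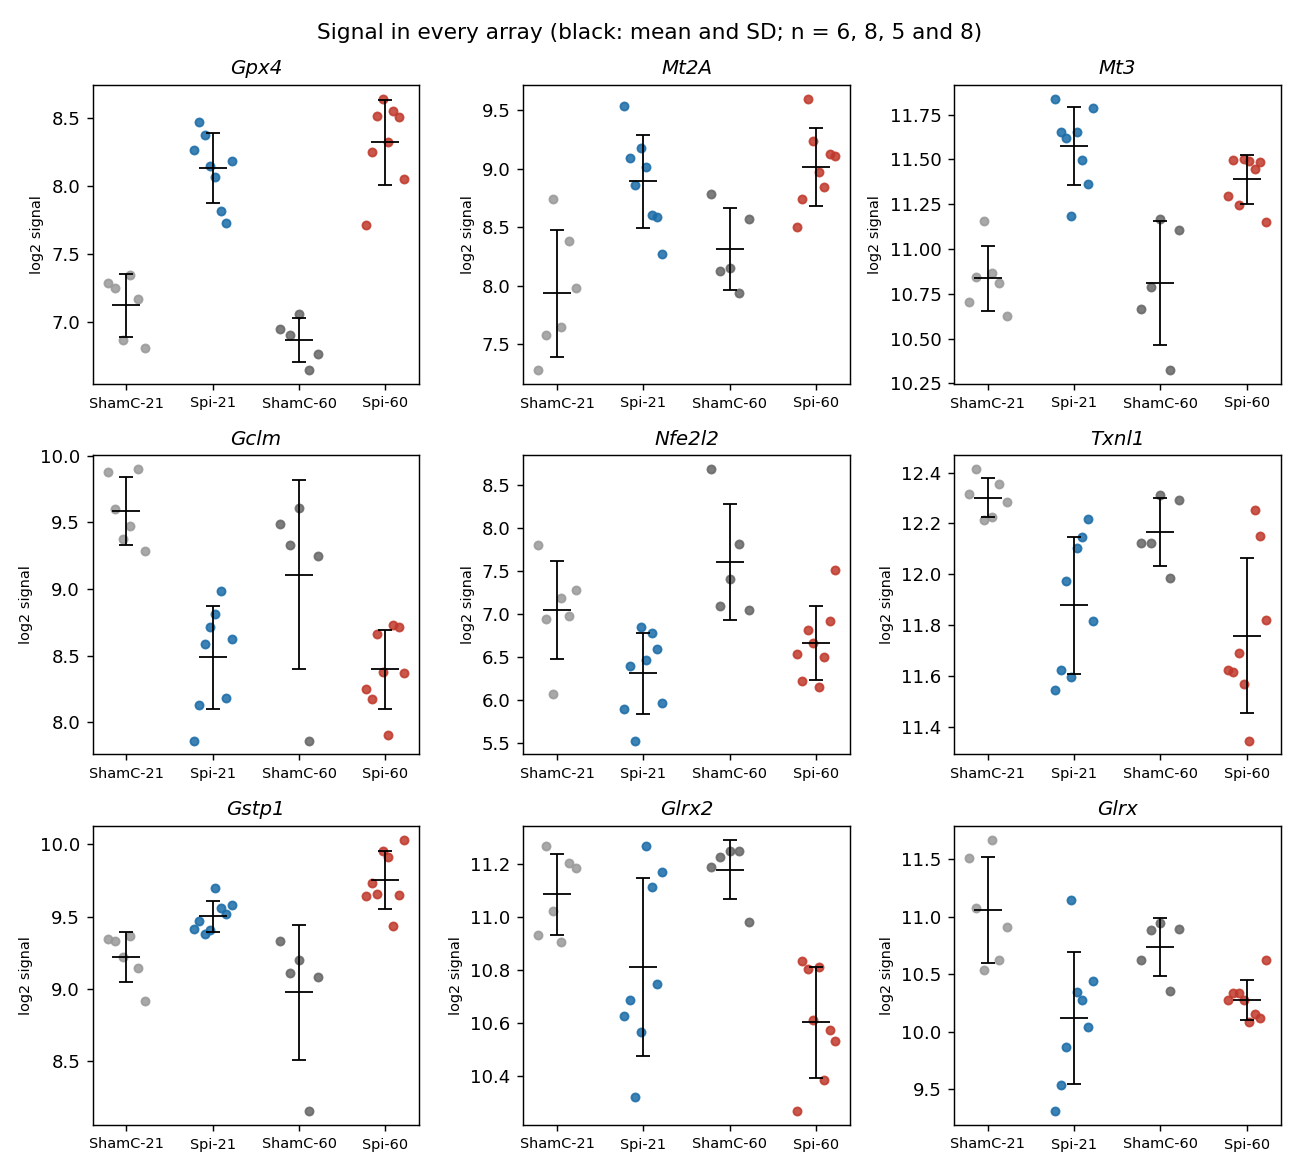
Log2 signal on every array for 9 genes in the 4 groups; points are arrays, the long bar is the mean and the short bars the SD. For Gpx4 the transected points lie above all sham points of the same day, and for Gclm the lone low ShamC-60 point is replicate 4 at 7.86.

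The glutathione transferases went both ways. Of the 17 soluble and mitochondrial members, 2 rose at 21 days (Gstk1 and Gstt1), while at 60 days 3 rose (Gstp1, Gstm4 and Gstp3) and 1 fell (Gsta4), beside 22.6% and 20.1% of all genes passing. The genes of this family resemble each other in sequence, so a probe set can also bind a relative's transcript. Gstp1, the pi-class enzyme, ran from 8.92 to 9.37 in ShamC-21 with a median of 9.28 and from 9.38 to 9.70 in Spi-21 with a median of 9.49. The ShamC-60 values were 9.33, 9.11, 9.20, 8.15 and 9.09, and Spi-60 ran from 9.43 to 10.03 with a median of 9.70. No array of the sham groups reached the transected range at its day. The difference was 0.28 ± 0.13 at 21 days (adjusted p = 0.119) and 0.78 ± 0.14 at 60 days (adjusted p = 0.000335). Without ShamC-60 replicate 4, the lowest array, the 21-day difference passed (adjusted p = 0.0278), since all groups share 1 estimate of the spread, and without ShamC-60 replicates 1 and 4 the 60-day difference was 0.62 (adjusted p = 0.00213).

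Gstm4, a mu-class enzyme, rose at 60 days. Its sham values were 7.10, 7.09, 7.05, 6.68 and 7.23, and Spi-60 ran from 7.34 to 8.05 with a median of 7.80. The 2 groups did not overlap, and the difference was 0.74 ± 0.18 (adjusted p = 0.00462), or 0.65 (adjusted p = 0.0648) without ShamC-60 replicates 1 and 4. At 21 days the difference was 0.07, with one Spi-21 array, replicate 7, at 6.16 and the others at 7.26 to 7.88. Gstp3 rose by 0.40 ± 0.12 at 60 days (adjusted p = 0.0242), a call lost without Spi-60 replicate 1, ShamC-60 replicate 1 or ShamC-60 replicate 5 (adjusted p up to 0.0616). Its signal was low, with a mean of 5.29 over all arrays and only 7.89% of genes dimmer.

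Gsta4, an alpha-class transferase that clears 4-hydroxynonenal, a product of lipid peroxidation, had the lowest difference of the 61 genes at 60 days. The sham values were 8.73, 7.95, 6.83, 8.40 and 8.66, and Spi-60 ran from 6.11 to 6.93 with a median of 6.53. Only ShamC-60 replicate 3 fell within the transected range. The difference was -1.58 ± 0.43 (adjusted p = 0.0111), or 3.00-fold lower. At 21 days ShamC-21 ran from 7.39 to 8.85, while Spi-21 split into 5.77 to 6.69 for replicates 1 to 4 and 7.03 to 8.86 for replicates 5 to 8. The 21-day difference of Gsta4 was -0.80 (adjusted p = 0.157) with all arrays and -1.81 (adjusted p = 0.000236) without replicates 5 to 8, and it passed without Spi-21 replicate 7 alone (adjusted p = 0.0488). These are the replicates whose GAPDH control stood apart. Their beta-actin control did not: its 3′ minus 5′ difference was 2.86 to 3.60, beside 2.89 to 3.53 in replicates 1 to 4. The part of RNA quality in this split was not tested.

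Gstk1, the mitochondrial and peroxisomal kappa-class enzyme, rose at 21 days by 0.36 ± 0.12 (adjusted p = 0.0247), from a range of 7.00 to 7.59 in ShamC-21 to one of 7.25 to 8.10 in Spi-21. The call was lost without ShamC-21 replicate 1 or without replicate 4 (adjusted p up to 0.0905), and in the mean of both days it was lost without ShamC-21 replicate 1, without ShamC-60 replicate 4 (adjusted p up to 0.0571) and with the replicate block (0.20, adjusted p = 0.0726). Gstt1, a theta-class enzyme, rose at 21 days by 0.28 ± 0.09 (adjusted p = 0.0223), and that call was lost without ShamC-21 replicate 4 (adjusted p = 0.0737). Gstm5 was lower in the mean alone (-0.60 ± 0.23, adjusted p = 0.0397), a call that 12 of the 27 arrays could each end (adjusted p up to 0.101). The remaining 10 genes of the 17 passed in no comparison, but with the glial marker covariate Gsta1 was lower at 60 days (-0.74, adjusted p = 0.0198) and in the mean (-0.44, adjusted p = 0.0315).

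Of the 3 membrane-bound transferases, Mgst1 rose at 21 days. ShamC-21 ran from 6.90 to 7.97 with a median of 7.50 and Spi-21 from 7.61 to 8.75 with a median of 8.23, and 7 of 8 transected arrays were above every sham array. The difference was 0.75 ± 0.20 (adjusted p = 0.0103). At 60 days the sham values of Mgst1 were 8.86, 8.08, 8.26, 8.25 and 8.05 and Spi-60 ran from 7.92 to 9.30, a difference of 0.15 (adjusted p = 0.652). Its call in the mean (0.45, adjusted p = 0.0173) was lost with the replicate block (0.35, adjusted p = 0.094). Mgst3 rose at 60 days by 0.36 ± 0.12 (adjusted p = 0.0434), a call that each of 11 arrays could end when left out (adjusted p up to 0.121), and its call in the mean (0.23, adjusted p = 0.0337) was lost with the replicate block (0.22, adjusted p = 0.0639). Mgst2 had a difference of -0.55 at 21 days (adjusted p = 0.0664) and -0.08 at 60 days. It passed at 21 days without Spi-21 replicate 5, Spi-21 replicate 6, ShamC-21 replicate 3 or ShamC-60 replicate 4 (adjusted p down to 0.0219).

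Both metallothioneins rose at both days. Mt3, the brain form that binds zinc and copper in neurons and astrocytes, ran from 10.63 to 11.16 in ShamC-21 with a median of 10.83 and from 11.18 to 11.84 in Spi-21 with a median of 11.64. Values in ShamC-60 were 10.66, 10.79, 11.17, 10.32 and 11.11, and Spi-60 ran from 11.15 to 11.50 with a median of 11.46. The groups did not overlap at 21 days, and at 60 days ShamC-60 replicate 3 lay just above the lowest transected array. The differences were 0.74 ± 0.12 (adjusted p = 0.000143) and 0.58 ± 0.13 (adjusted p = 0.00222). Without ShamC-60 replicates 1 and 4 the 60-day difference of Mt3 was 0.37 (adjusted p = 0.0942).

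Mt2A, the inducible metallothionein, ran from 7.28 to 8.74 in ShamC-21 with a median of 7.81 and from 8.27 to 9.53 in Spi-21 with a median of 8.94. In ShamC-60 the values were 8.78, 8.13, 8.15, 7.94 and 8.57, and Spi-60 ran from 8.50 to 9.60 with a median of 9.04. The groups overlapped at both days, but all 8 transected arrays were above the sham mean each time. The differences were 0.96 ± 0.21 (adjusted p = 0.00217) and 0.70 ± 0.22 (adjusted p = 0.0255). The 60-day call of Mt2A was lost on leaving out any 1 of ShamC-60 replicates 2, 3 and 4 (adjusted p up to 0.0887), and the 21-day difference was 0.68 (adjusted p = 0.0684) without Spi-21 replicates 1 to 4.

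Astrocytes also express both metallothioneins. The counts of markers of other cell types that follow stand beside 22.6% of all genes passing at 21 days (11.1% higher, 11.5% lower) and 20.1% at 60 days (10.7% higher, 9.44% lower). Of 11 measured astrocyte markers, 3 rose at 21 days (Gfap by 1.07, Aldoc by 0.92 and Slc1a2 by 0.39) and 1 at 60 days (Aldoc by 1.38), and none fell. The log2 scale has no true zero, so the absence of a marker cannot be read from it. The mean of the 11 ran from 8.11 to 9.24 in ShamC-21, 8.60 to 9.30 in Spi-21, 8.67 to 9.74 in ShamC-60 and 8.92 to 9.65 in Spi-60. With the mean of the astrocyte, oligodendrocyte and microglial markers as a covariate, Mt2A differed by 0.82 and 0.60 and Mt3 by 0.84 and 0.65 at the 2 days, all past the threshold. That covariate mixes several cell types and includes markers that themselves rose, such as Gfap and Aldoc. The fit therefore cannot separate astrocyte content from a change within the neurons. Of the other lists, 3 of 12 microglial markers rose at 21 days and 1 at 60 days. Of 11 oligodendrocyte markers, 2 rose at 21 days and 1 at 60 days. Of 15 motor neuron markers, 2 rose at 21 days and 5 at 60 days. None on these lists was lower. The motor neuron mean was 8.81 on ShamC-60 replicate 4, 10.1 to 10.3 on the other sham arrays of that day and 10.2 to 10.4 in Spi-60. The 60-day motor neuron count was not tested without replicate 4. At 60 days 1 of 5 endothelial markers rose, 2 of 7 fibroblast and Schwann cell markers fell and 1 of 3 blood markers fell. At 21 days 1 blood marker rose. The fibroblast and Schwann cell mean was 8.80 on ShamC-60 replicate 1 and 7.40 on replicate 4. It was 6.58 to 6.80 on the other sham arrays of that day and 6.47 to 6.80 in Spi-60. The blood mean was 8.02 and 7.20 on replicates 1 and 4, 6.67 to 7.02 on the others and 6.33 to 6.76 in Spi-60. These falls were not tested without those arrays.

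The methionine sulfoxide reductases Msra and Msrb2, which repair oxidised methionine, passed in no comparison, with differences between -0.13 and 0.03.

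**Figure D3:**
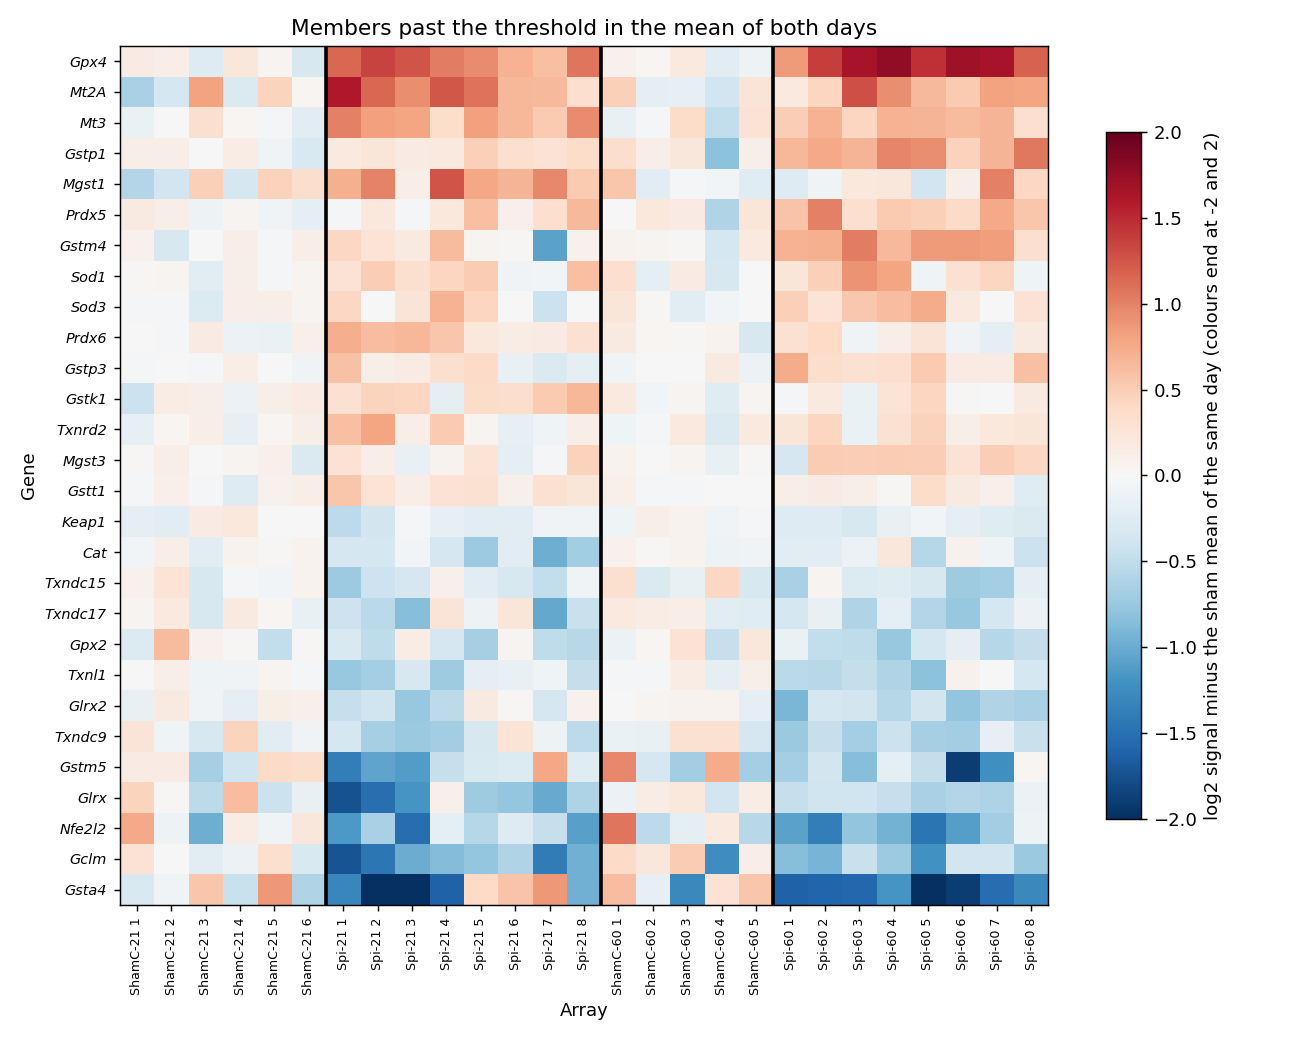
Log2 signal minus the sham mean of the same day for the 28 genes past the threshold in the mean of both days (rows) on all 27 arrays (columns), with colours ending at -2 and 2. The Spi-21 columns 1 to 4 and 5 to 8 differ for Gsta4, and among the sham columns Nfe2l2 is high on ShamC-60 1 and Gclm low on ShamC-60 4.

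The spread within groups was alike for these genes and the array: the median within-group SD was 0.256 over the 61 genes and 0.240 over all genes. Gsta4 (0.821), Gsta1 (0.643), Gstm5 (0.640), Txndc12 (0.543) and Nfe2l2 (0.522) varied most from sample to sample, and Gsto2 (0.138), Keap1 (0.139) and Gstt1 (0.142) least.

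Which genes passed changed when arrays that stood apart were left out, a step that also leaves fewer arrays in the fit. Without Spi-21 replicates 5 to 8 the 21-day comparison called 24 genes, 9 higher and 15 lower, and kept 11 of the 13. Without Spi-21 replicates 1 to 4 it called 7, 4 higher and 3 lower, and kept 6 of the 13. Gclm, Glrx, Gpx4 and Mt3 passed both ways. Without ShamC-60 replicates 1 and 4 the 60-day comparison called 5 genes, 2 higher and 3 lower: Gpx4, Gstp1, Gclm and Glrx2 were kept, and Gpx2 was gained (-0.63, adjusted p = 0.0374). Without these 2 arrays Nfe2l2 differed by -0.52 (adjusted p = 0.318), Mt2A by 0.73 (adjusted p = 0.0872) and Gsta4 by -1.28 (adjusted p = 0.138). For Mt2A (0.73 beside 0.70 with all arrays), Gstp3 (0.44 beside 0.40) and Txnl1 (-0.48 beside -0.41) the call was lost although the difference was no smaller.

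Leaving out 1 array could also bring a gene past the threshold. At 60 days Gpx2 passed without Spi-21 replicate 3, Spi-60 replicate 6, ShamC-21 replicate 2 or 5, or ShamC-60 replicate 4 (adjusted p down to 0.0295). Sod3 passed at 60 days without Spi-21 replicate 4 or 7, Spi-60 replicate 6 or 7, or ShamC-60 replicate 1 (down to 0.0275), Sod1 without Spi-60 replicate 5 or 8 (down to 0.0389), and Txndc15 without Spi-60 replicate 2 or ShamC-60 replicate 5 (down to 0.0426). At 21 days Txndc9 passed without Spi-21 replicate 6 or 7 or ShamC-21 replicate 3 (down to 0.0129), Txndc17 without Spi-21 replicate 4 or 6 (down to 0.0411), and Keap1 without ShamC-21 replicate 2 (0.0485). Mgst2 passed at that day without Spi-21 replicate 5 or 6, ShamC-21 replicate 3 or ShamC-60 replicate 4 (down to 0.0219), Gstp1 without ShamC-60 replicate 4 (0.0278), Glrx2 without Spi-21 replicate 5 (0.0433) and Gsta4 without Spi-21 replicate 7 (0.0488). In the mean of both days Txn1 (0.0339), Txnrd3 (0.0231), Txndc5 (0.0413), Mgst2 (0.0127) and Gstm7 (0.00711) passed without ShamC-60 replicate 4. Mgst2 also passed there without ShamC-21 replicate 3 (0.0444), and Gstm7 without Spi-60 replicate 6 (0.0385) or 7 (0.0434). The others in the mean were Txnip (0.0182) without ShamC-60 replicate 1, Gstm3 (0.0377) without Spi-21 replicate 7 and Txnl4b (0.0414) without Spi-21 replicate 6.

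Other fits moved calls as well. With the glial marker mean as a covariate, Txnrd3 no longer passed at 21 days (-0.41, adjusted p = 0.0715), nor in the mean of both days did Sod3 (0.21, adjusted p = 0.0849), Gstp3 (0.21, 0.0566), Mgst1 (0.33, 0.0678) and Txnrd2 (0.23, 0.0735). Besides Gpx8 and Gsta1, that fit called Txndc15 at 60 days (-0.42, adjusted p = 0.0428) and Gstm3 in the mean (0.21, 0.0436). Quantile normalization, besides Cat, Txnl1 and Gclm, ended the calls of Txnrd3 at 21 days (-0.35, adjusted p = 0.106) and, in the mean, of Cat (0.0747), Keap1 (0.169), Gstm5 (0.0536), Txndc17 (0.0526) and Txnrd2 (0.0612). It gave calls for Gstp1 (0.40, adjusted p = 0.0253) and Prdx5 (0.35, 0.0354) at 21 days, Gpx2 at 60 days (-0.46, 0.041) and Gstm7 in the mean (0.42, 0.0304). Fits of only the groups compared ended the calls of Gstk1 at 21 days (adjusted p = 0.0566) and of Mgst3 (0.0684) and Txnl1 (0.0532) at 60 days, and gave calls for Gstp1 at 21 days (0.0422) and Glrx (0.0144), Gpx2 (0.0353), Sod3 (0.0374) and Txndc17 (0.0443) at 60 days. A trended robust prior ended the 60-day call of Mgst3 (adjusted p = 0.055) and gave one for Sod3 (0.0485).

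Array weights ended the call of Gstm5 in the mean (-0.46, adjusted p = 0.0614). They gave calls at 21 days for Gstp1 (adjusted p = 0.045), Mgst2 (0.0336) and Txndc9 (0.0355), and at 60 days for Glrx (0.0253), Gpx2 (0.00615), Gstm7 (0.0206), Keap1 (0.0108), Sod1 (0.0118), Sod3 (0.00759) and Txndc17 (0.0172). In the mean they gave calls for Gsta3l1 (0.0463), Gstm7 (0.00642), Mgst2 (0.0107), Txn1 (0.0338), Txndc5 (0.0414), Txnl4b (0.0199) and Txnrd3 (0.0159).

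**Figure D4:**
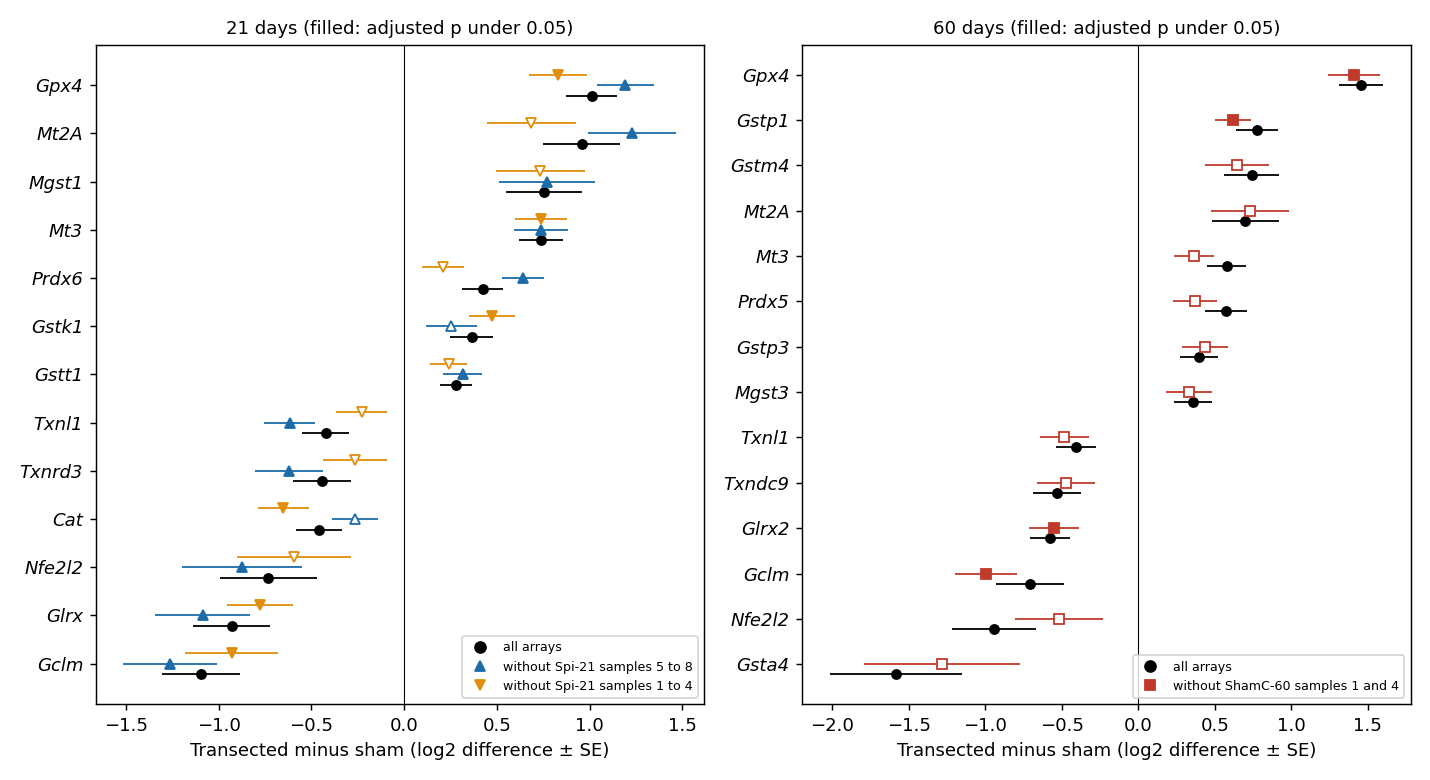
Log2 difference and standard error of each gene that passed at 21 days (left) or 60 days (right), with all arrays (black circles) and with the named arrays left out (coloured); filled coloured symbols passed an adjusted p of 0.05. Gpx4, Mt3, Glrx and Gclm are filled throughout on the left, and Gpx4, Gstp1, Glrx2 and Gclm on the right.

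The effect of transection was not shown to differ between the days for any of the 61 genes. The test of the effect at 60 days minus the effect at 21 days called none in limma, with 7 genes at an unadjusted p under 0.05, beside 0% of all genes called. The smallest p in each direction belonged to Gstm4 (0.67 ± 0.24) and Gstp1 (0.50 ± 0.19) among positive differences and Gsto1 (-0.49 ± 0.20) and Mgst1 (-0.60 ± 0.30) among negative ones, with adjusted p between 0.647 and 0.722. For Gpx4 the difference of effects was 0.45 ± 0.20 (adjusted p = 0.682). Without Spi-21 replicates 1 to 4, Gstm4 passed (0.97, adjusted p = 0.0423).

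Time alone gave no call either. Between Spi-60 and Spi-21 limma called none of the 61 genes, beside 0.0921% of all genes, with 8 at an unadjusted p under 0.05, led by Gsto2 (0.28 ± 0.08, adjusted p = 0.113) and Gstm4 (0.46 ± 0.16, adjusted p = 0.185). Without Spi-21 replicates 1 to 4 it called 6: Gstm4 (0.76), Sod3 (0.53) and Gstp3 (0.40) higher at 60 days, and Gsta4 (-1.68), Txnl4a (-0.53) and Glrx2 (-0.47) lower. Between ShamC-60 and ShamC-21 it again called none, beside 0% of all genes, with 5 at an unadjusted p under 0.05, led by Mgst1 (0.81 ± 0.23) and Gsto1 (0.44 ± 0.15), and the smallest adjusted p was 0.999. The 2 negative sham differences with the smallest p were Gclm (-0.48) and Gstt2 (-0.24).

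Genes around the system were read from 5 further lists, whose counts stand beside 22.6% of all genes passing at 21 days (11.1% higher, 11.5% lower) and 20.1% at 60 days (10.7% higher, 9.44% lower). Of 10 measured genes of cystine and glutathione transport and breakdown, 3 rose and 2 fell at 21 days and 4 rose and 2 fell at 60 days. Oplah, the oxoprolinase that returns glutamate from broken-down glutathione, rose by 0.95 ± 0.12 at 21 days (adjusted p = 8.32e-06) and 0.81 ± 0.13 at 60 days (adjusted p = 9.17e-05). Chac1, which splits glutathione in the cytosol, rose by 0.77 and 0.75 (adjusted p = 0.0142 and 0.0253). Cndp2, a dipeptidase that cuts cysteinylglycine, rose by 0.79 at 60 days, Ggt7 by 0.63 at 60 days and Anpep by 0.31 at 21 days. Lap3, a leucine aminopeptidase that also cuts cysteinylglycine, fell by 0.94 on the log2 scale at 21 days and by 1.20 at 60 days (adjusted p = 0.00989 and 0.00288). Ggct, the cyclotransferase that makes oxoproline, fell by 0.64 at 60 days, and Slc3a2, the heavy chain of the cystine transporter, fell by 0.31 at 21 days.

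In the NADPH supply, 1 of 10 measured genes rose and 2 fell at each day, beside the same 22.6% and 20.1% of all genes. Pgls, an enzyme of the pentose phosphate pathway, rose by 0.68 ± 0.13 at 21 days and 0.94 ± 0.14 at 60 days (adjusted p = 0.000866 and 4.1e-05). Idh1, the cytosolic isocitrate dehydrogenase that makes NADPH, had differences of -0.65 and -0.67 (adjusted p = 0.0224 and 0.0274), and Nadk2, the mitochondrial NAD kinase, of -1.53 ± 0.48 and -1.51 ± 0.51 (adjusted p = 0.0245 and 0.0377).

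Of 19 measured redox repair and selenoprotein genes, 3 rose at 21 days, and 5 rose and 1 fell at 60 days. These counts, like those of the remaining lists, stand beside 11.1% of all genes higher and 11.5% lower at 21 days, and 10.7% and 9.44% at 60 days. Selenom, a selenoprotein of the endoplasmic reticulum, rose by 1.02 ± 0.21 and 1.60 ± 0.22 (adjusted p = 0.00154 and 2.18e-05), Selenow by 0.46 and 0.54 and Sesn3, a sestrin, by 0.38 and 0.47. At 60 days Glo1, which detoxifies methylglyoxal, rose by 0.48 and Ethe1 by 0.36, while Sephs1 fell by 0.57. Of 15 measured regulators and other targets of NRF2, 2 rose and 1 fell at 21 days and 1 rose at 60 days. Nfe2l1, the gene of the related factor NRF1, rose by 0.39 and 0.53 (adjusted p = 0.038 and 0.00982), Osgin1 rose by 0.33 at 21 days, and Cul3, the ligase scaffold that works with KEAP1, fell by 0.38 at 21 days. Of 8 measured sources of superoxide and peroxide, 1 rose at 21 days (Nos3, 0.38, adjusted p = 0.0498) and none passed at 60 days. The median differences of the 5 lists lay between -0.15 and 0.17 at the 2 days.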

How the data were processed

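Samples were labelled tail motor neurons, laser-dissected, and their RNA, amplified in 2 rounds, was read on Affymetrix rat 230 2.0 arrays, per the labels' protocols. The deposited table holds log2 values that the authors made with RMA, per the submitters' processing notes. Its version and annotation were not given in the sources used here. How many arrays there are sets the precision. Of 12919 probe sets, 6 actin and GAPDH controls were left out and 12913 tested; 11880 list 1 gene symbol, 320 several and 713 none. Group means were fitted over the 27 arrays with limma 3.58.1 (lmFit, eBayes) in R 4.3.3. This gave 6 two-sided comparisons with Benjamini-Hochberg adjustment over all 12913 and a threshold of 0.05. The fit was also run on simulated data with independent noise for each value, so that run does not cover arrays that stand apart as a whole. Motifs and figures used Python 3.11.15.

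The genes, lists and marker lists were chosen with earlier results of these data known. Genes were named where they passed in a comparison of transected with sham samples, and otherwise from a set list of central antioxidant genes. From each surrounding list up to 3 genes per direction with the smallest p were named, and for the between-day comparisons 2 per direction. Chac1, Anpep, Selenow, Ethe1, the marker genes, and the genes named outside this rule among the 61 were chosen after their values were seen. Alternatives were array weights, quantile normalization, a signal filter, a robust prior, other probe sets, a glial covariate, a replicate block, fits of only the groups compared, and leaving out arrays.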

Additional observations from a re-analysis of the deposited data

Results flagged for a closer look

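In 18 of 156 groups of values (39 named genes in 4 groups, 11.5%), the highest or lowest array stood far from the others by Dixon's criterion, which chance meets in about 1 in 20 groups. The genes share the same arrays, so these groups of values are not independent and the 11.5% cannot be weighed against that rate. ShamC-60 replicate 4, whose motor neuron marker mean was 8.81 beside 10.1 to 10.3 on the other arrays of its group, was the low array for 5 genes: Gclm (7.86, next 9.25), Gstp1 (8.15, next 9.09), Prdx2 (11.2, next 12.0), Sod2 (7.29, next 7.94) and Txnrd3 (7.67, next 8.49). ShamC-60 replicate 1, whose oligodendrocyte marker mean was 8.63, was the high array for 3: Txnip (8.77, next 7.39), Mgst1 (8.86, next 8.26) and Gstt1 (6.47, next 6.36). ShamC-60 replicate 5 was the low array for Glrx2 (10.98, next 11.19). The part of cell content in these values was not tested.

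The other 9 were single arrays. In Spi-21 these were Gstm4 on replicate 7 (6.16, next 7.26), Gstk1 on replicate 4 (7.25, next 7.74) and Gstt1 on replicate 1 (6.84, next 6.58). In Spi-60 they were Glrx on replicate 8 (10.63, next 10.34), Mgst3 on replicate 1 (8.00, next 8.63) and Prdx4 on replicate 5 (6.48, next 7.00). In ShamC-21 they were Gclc on replicate 3 (5.68, next 6.41), Gstm4 on replicate 2 (6.91, next 7.21) and Mgst3 on replicate 6 (8.05, next 8.35). No named gene had all arrays of one day on one side of the sham mean and all of the other day on the opposite side.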

How the results depend on the processing

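Leaving out each of the 27 arrays in turn gave 9 to 15 called genes at 21 days (lowest without ShamC-21 replicate 4), 9 to 16 at 60 days (lowest without ShamC-60 replicate 3), 25 to 29 in the mean, and 0 to 0 in the other 3 comparisons. Leaving out whole sets moved the counts further: 24 and 7 at 21 days without Spi-21 replicates 5 to 8 and 1 to 4, 5 at 60 days without ShamC-60 replicates 1 and 4, and, without Spi-21 replicates 1 to 4, 6 between Spi-60 and Spi-21 and 1 for the difference of effects. Of the 28 calls in the mean, leaving out Spi-21 replicates 1 to 4 kept 19 and lost 9, among them Sod1, Prdx6 and Gstt1. Without Spi-21 replicates 5 to 8, 2 were lost and 6 gained, and without ShamC-60 replicates 1 and 4, 5 were lost and 5 gained. The only reversed result was Keap1 in the mean, 0.20 with its more variable probe set; the cause was not tested. A signal filter at the median left 47 of the genes, without Gstp3, Gpx2, Sod3 and Txnrd2. It called 13 genes at 21 days, 13 at 60 days and 24 in the mean. Quantile normalization called 9 higher and 3 lower at 21 days, beside 7 and 6, and moved the median of all genes by 0.02. With the replicate block 14, 16 and 26 genes passed at 21 days, 60 days and in the mean, and 0 in the other 3 comparisons; beyond Sod3, Txnrd3, Txndc9, Gstk1, Mgst1 and Mgst3, it gave calls for Hmox2 at 60 days (0.32) and Gstm7 in the mean (0.43) and changed no other. Replicate numbers showed no clear pairing of the samples: over 35 same-numbered pairs the deviations from the group means correlated at -0.31 to 0.33, 9 were over 0.1, and 2 of 27 samples matched their own number best. Such correlations cannot tell whether same-numbered samples shared a batch. Neither animals nor batches are named in the labels, so they could not be entered in the fit.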
